A study of Homo sapiens with 2 samples.

Results

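The genes described here encode the splicing machinery. They are the protein-coding genes of the RefSeq GRCh38 table on chromosomes 1 to 22 and X whose symbols start with SRSF, SF3A, SF3B, SNRP, PRPF, HNRNP, U2AF or LUC7L, or with RBM followed by a digit or X. This gave 121 genes of 19974. The rule used symbols alone and no measured value. It takes in RBM proteins whose main role is not splicing, and it leaves out symbols starting with SNRNP. The measurements were chromatin immunoprecipitation followed by sequencing (ChIP-seq) with an antibody to WSTF in SW620, an established line from a lymph node metastasis of a human colorectal adenocarcinoma. WSTF is the product of BAZ1B; it carries a bromodomain and remodels chromatin together with the ATPase SMARCA5. The series has 2 samples, both of SW620 cells: the sample titled SW620-IP, and a sample titled SW620 whose title does not give its role and which was put in no group. The cells overexpress WSTF according to the design text, whereas the series title names WSTF knockdown. The design text also speaks of biological replicates, but a single list of 2697 peak summits was analysed, so no result below has a replicate error or a test between samples, and the read depth is unknown.

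Pre-mRNA splicing is carried out by the spliceosome, which assembles on each intron from small nuclear ribonucleoproteins (snRNPs). The U1 snRNP recognises the 5′ splice site, U2AF and the U2 snRNP the branch point and 3′ splice site, and the tri-snRNP of U4, U6 and U5 then joins to form the catalytic centre. SR proteins and hnRNP proteins bind exons and introns and steer which splice sites are used. Genes of this machinery are expressed in nearly all cells, mostly from CpG-rich promoters.

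The sequences below show where WSTF summits fell at promoters of these genes. They come from the RefSeq promoter windows (GRCh38.p14), which run from 250 bases before to 50 bases after a listed transcription start. The first is the whole 300-base window of LUC7L2, the gene with the highest-scoring summit, which lay 57 bases before the window's first base. The others are stretches of up to 151 bases around the summit, in which the summit is base 76. Those shown have a summit inside the window at HNRNPK, SF3A2, PRPF19, SRSF6, RBM7 and HNRNPUL1. Each reads 5′ to 3′ on the strand of the gene. Capitals mark matches on either strand to the CCAAT box, the GC box GGGCGG, the ETS-type motif CCGGAAG, the element TCTCGCGA and the other motifs counted below; the PRPF19 stretch holds none of them.
LUC7L2 (chr7:139340222-139340521, plus strand): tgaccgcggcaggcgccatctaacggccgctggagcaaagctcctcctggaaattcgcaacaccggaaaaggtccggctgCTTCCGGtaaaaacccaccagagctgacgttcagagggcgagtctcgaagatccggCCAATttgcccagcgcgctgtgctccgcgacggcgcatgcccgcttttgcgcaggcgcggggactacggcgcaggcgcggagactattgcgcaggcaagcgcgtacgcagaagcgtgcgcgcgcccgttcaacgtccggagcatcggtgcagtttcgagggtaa
HNRNPK (chr9:83980566-83980692, minus strand): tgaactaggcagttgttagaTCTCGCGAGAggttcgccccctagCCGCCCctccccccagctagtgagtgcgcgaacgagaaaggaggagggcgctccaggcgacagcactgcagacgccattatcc
SF3A2 (chr19:2236757-2236873, plus strand): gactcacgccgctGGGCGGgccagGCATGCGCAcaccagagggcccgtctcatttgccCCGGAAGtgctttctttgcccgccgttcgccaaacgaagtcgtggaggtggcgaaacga
PRPF19 (chr11:60906536-60906651, minus strand): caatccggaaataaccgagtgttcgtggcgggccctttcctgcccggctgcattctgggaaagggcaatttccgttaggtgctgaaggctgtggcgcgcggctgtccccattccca
SRSF6 (chr20:43457746-43457896, plus strand): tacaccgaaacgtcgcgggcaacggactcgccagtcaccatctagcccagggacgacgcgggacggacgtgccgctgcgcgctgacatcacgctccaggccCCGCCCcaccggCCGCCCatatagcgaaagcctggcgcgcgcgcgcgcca
RBM7 (chr11:114400442-114400592, plus strand): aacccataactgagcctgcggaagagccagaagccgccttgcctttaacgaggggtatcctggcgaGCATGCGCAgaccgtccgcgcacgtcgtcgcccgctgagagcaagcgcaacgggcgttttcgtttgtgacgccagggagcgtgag
HNRNPUL1 (chr19:41264314-41264421, plus strand): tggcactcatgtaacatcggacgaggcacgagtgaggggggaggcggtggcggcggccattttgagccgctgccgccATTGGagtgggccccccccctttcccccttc

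Of the 121 splicing genes, 31 had a summit inside them or at most 1 kb away (25.6%, exact Clopper-Pearson 95% interval 18.1 to 34.4), against 13.8% of all 19974 protein-coding genes. Within 1 kb of an outer end of the gene, 29 splicing genes (23.97%, interval 16.7 to 32.6) had a summit, against 11.6% of all protein-coding genes. A summit with a score of 5 or more lay at 8 splicing genes (6.61%, interval 2.90 to 12.6), against 3.71% of all protein-coding genes, a share inside that interval. The score is the authors' value for each summit, taken here to be a q-value on the −log10 scale. The intervals cover counting error only and treat genes as independent. That assumption does not hold for the readthrough genes RBM14-RBM4 and RBM27-POU4F3, which share their only summit with RBM14 and RBM27. The 31 genes therefore rest on 30 summits, with 2 at LUC7L2 and 1 at each of the others.

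The background share depended on the promoter. Of the 108 splicing genes with a listed start, 86 had a CpG-rich promoter window, meaning at least 55% GC and an observed over expected CpG ratio of at least 0.65. Among these, 26 had a summit (30.2%, interval 20.8 to 41.1), against 20.6% of all 9912 protein-coding genes with such a promoter. Among the 22 without, 4 had a summit (18.2%, interval 5.19 to 40.3), against 4.71% of 5901 protein-coding genes. The 4 include RBM27 and its readthrough RBM27-POU4F3, which share their window and their summit. The 26 include RBM14 and RBM14-RBM4, which also share theirs. Both intervals treat these genes as independent, and none was computed without the readthrough genes, so a difference from the background in either group is uncertain. Expression in SW620 was not measured in these data, so genes active in these cells could not be compared with each other. Weighted to the chromosomes on which the splicing genes lie, the background share was 13.9%.

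**Figure D1:**
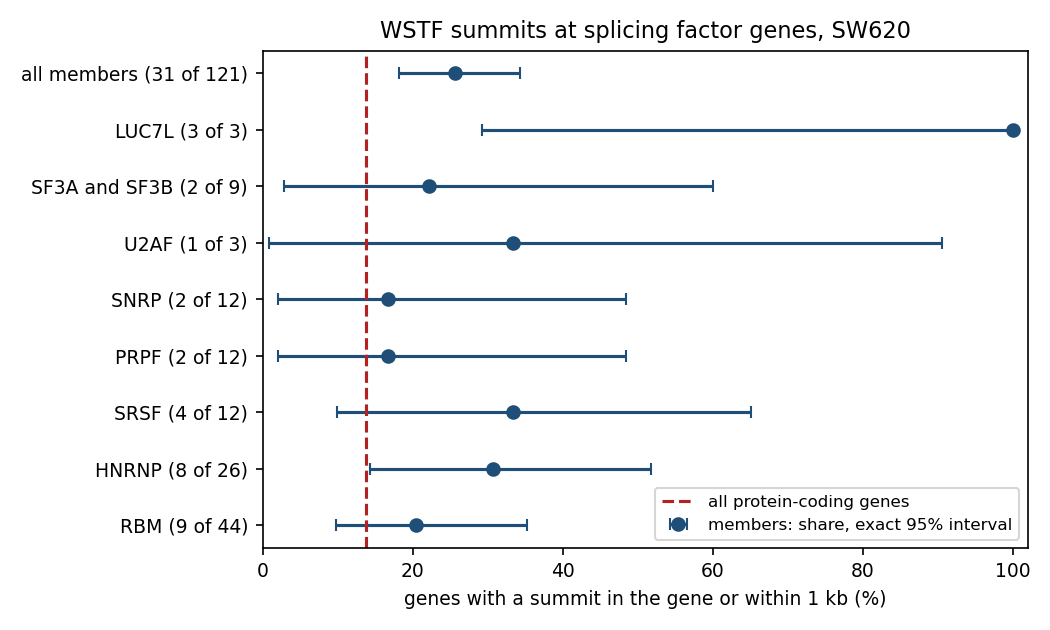
Share of genes that held a summit or had one at most 1 kb away (horizontal axis, percent), for all splicing genes and for each symbol family. Points are shares, bars are exact 95% intervals, and the dashed line marks the 13.8% of all protein-coding genes; the interval of the 121 genes together starts at 18.1%, and the line crosses the intervals of all families except LUC7L and HNRNP.

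The LUC7L family, homologues of the yeast U1 snRNP protein Luc7 that act in 5′ splice site choice, had summits at all 3 of its members. LUC7L2 held a summit with a score of 14.9 at chromosome 7 position 139340165. It ranked 12th of the 2697, so that 0.408% of summits scored higher. It lay 307 bp before the outer start of LUC7L2 (139340472 to 139423454, plus strand), and FMC1, a gene for an assembly factor of mitochondrial ATP synthase, starts at the same base. LUC7L2 has a further listed start at 139359894, inside its outer limits, and a second summit (score 3.24, position 139360123) lay 229 bp downstream of that start. The summit at LUC7L3 on chromosome 17 (score 5.20, position 50719836) lay 233 bp inside the gene, and that at LUC7L on chromosome 16 (score 4.44, position 229260) lay 189 bp inside. With 3 genes the exact interval of the share ran from 29.2% to 100%. Apart from the stronger summit at LUC7L2, the LUC7L family summits thus lay 189 to 233 bp downstream of a start.

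SF3A2 and SF3B2, whose products belong to the SF3a and SF3b complexes that hold the U2 snRNP at the branch point, were 2 of 9 SF3A and SF3B genes (22.2%, interval 2.81 to 60.0). The SF3A2 summit (chromosome 19 position 2236832, score 4.03) lay 8 bp inside the gene, and the SF3B2 summit (chromosome 11 position 66052099, score 3.93) lay 265 bp upstream of it. No summit lay within 1 kb of SF3B1, the subunit gene recurrently mutated in blood cancers, where the nearest was 64581 bp away, nor of SF3A1, SF3A3, SF3B3, SF3B4, SF3B5 or SF3B6.

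Of the 3 U2AF genes, U2AF2, which encodes the large subunit that binds the polypyrimidine tract, was counted through a summit (chromosome 19 position 55675206, score 2.13) 490 bp past its far end. That summit lay 20171 bp from the start of U2AF2 and 20 bp upstream of the start of EPN1, an endocytic adaptor gene. U2AF1, the small subunit gene, and its relative U2AF1L4 had none.

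Among the SNRP genes, which encode the Sm ring and other core snRNP proteins, 2 of 12 had a summit (16.7%, interval 2.09 to 48.4), and both scores were low. SNRPB2, a U2 snRNP protein gene, had a summit 141 bp upstream of its start (chromosome 20 position 16729885, score 2.44). The summit counted for SNRPD2, an Sm ring gene, lay 424 bp upstream of it (chromosome 19 position 45692740, score 1.93) but 74 bp inside QPCTL, the divergent neighbour. It was the lowest score at any splicing gene, and 94.1% of all summits scored higher. SNRPA, SNRPA1, SNRPB, SNRPC, SNRPD1, SNRPD3, SNRPE, SNRPF, SNRPG and SNRPN had no summit within 1 kb.

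The PRPF genes encode tri-snRNP proteins and factors of spliceosome activation, and 2 of 12 had a summit (16.7%, interval 2.09 to 48.4). Both scored well above the list's median of 3.72. PRPF3, a U4/U6 snRNP protein gene linked to inherited retinal degeneration, had a summit 225 bp outside the gene (chromosome 1 position 150321243, score 6.84); no start of PRPF3 was listed. The PRPF19 summit (chromosome 11 position 60906576, score 6.22) lay 9 bp inside the gene. PRPF19 encodes a ubiquitin ligase at the core of the complex that activates the spliceosome. PRPF8, the gene of the large U5 protein at the catalytic centre, was the nearest miss of all splicing genes, with a summit 1323 bp outside it. PRPF4, PRPF6, PRPF18, PRPF31, PRPF38A, PRPF38B, PRPF39 and PRPF40B had none within 1 kb either.

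Of the 12 SRSF genes, whose products are the serine and arginine-rich splicing activators, 4 had a summit (33.3%, interval 9.93 to 65.1). The highest score, 6.56, was at SRSF1, a splicing regulator with oncogenic activity, where the summit lay 363 bp upstream (chromosome 17 position 58007609). SRSF6 had a summit 75 bp upstream (chromosome 20 position 43457821, score 4.01). The other two lay farther into the transcribed region, at 485 bp in SRSF4 (chromosome 1 position 29181415, score 2.45) and at 454 bp in SRSF8 (chromosome 11 position 95067373, score 2.52). SRSF8 had promoter windows of 36.0% and 38.0% GC, the lowest among the splicing genes with a summit. SRSF2, SRSF3, SRSF5, SRSF7, SRSF9, SRSF10, SRSF11 and SRSF12 had none.

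The HNRNP genes, which encode proteins that coat nascent transcripts and often oppose SR proteins, had summits at 8 of 26 members (30.8%, interval 14.3 to 51.8). HNRNPR scored highest at 8.51, rank 91, with the summit 370 bp upstream (chromosome 1 position 23344654). HNRNPH3 (4.70), HNRNPUL1 (4.60) and HNRNPA0 (4.30) were above the median of the list, and HNRNPH1 was at it (3.72). HNRNPUL2 (3.62), HNRNPK (3.13) and HNRNPA3 (2.87) were below it. HNRNPK, whose KH domains bind C-rich RNA, had its summit 2 bp from a start (chromosome 9 position 83980617), and inside the divergent gene RMI1, at -188 bp from the nearest listed RMI1 start, with minus for upstream.

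At HNRNPUL1 and HNRNPH1 the summit lay at an internal start. The HNRNPUL1 summit (chromosome 19 position 41264389) was 1832 bp inside the outer end of the gene but 17 bp downstream of a listed start. The HNRNPH1 summit (chromosome 5 position 179624485) was 10299 bp inside the outer end and 115 bp downstream of a listed start. With the second LUC7L2 summit, these were the 3 summits at a start more than 1 kb inside the outer gene limits, and HNRNPUL1 and HNRNPH1 are the members that the count at outer ends misses.

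The 18 HNRNP genes without a summit included HNRNPA1, HNRNPC, HNRNPU, HNRNPL, HNRNPM, HNRNPD and HNRNPF. HNRNPA2B1 had a summit 1575 bp outside it, the next nearest miss after PRPF8. HNRNPA1 and several other splicing genes have many processed pseudogenes, and HNRNPCL1, HNRNPCL2, HNRNPCL3 and HNRNPCL4 are close copies of each other. How reads that fit several places were treated could not be learned from the labels, so a missing summit at such genes is uncertain.

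The RBM symbols cover RNA-binding proteins of mixed function, and 9 of 44 had a summit (20.5%, interval 9.80 to 35.3) through 7 summits. RBM7, whose product is the RNA-binding subunit of a nuclear exosome targeting complex, scored 7.36, with a summit 149 bp upstream (chromosome 11 position 114400517) and 6 bp from the start of the divergent gene C11orf71. RBM15B, which encodes a partner of the m6A methyltransferase, scored 6.04, 163 bp upstream of the start (chromosome 3 position 51391122). The remainder were below the list's median: RBM14 (3.44), the RBMX retrogene RBMXL1 (3.13), RBM27 (3.02), RBM26 (2.81) and RBMX2 (1.95), whose product joins the activated spliceosome. RBMX itself had none, nor did RBM5, RBM10, RBM17, RBM22, RBM25 or RBM39, which act in splicing.

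**Figure D2:**
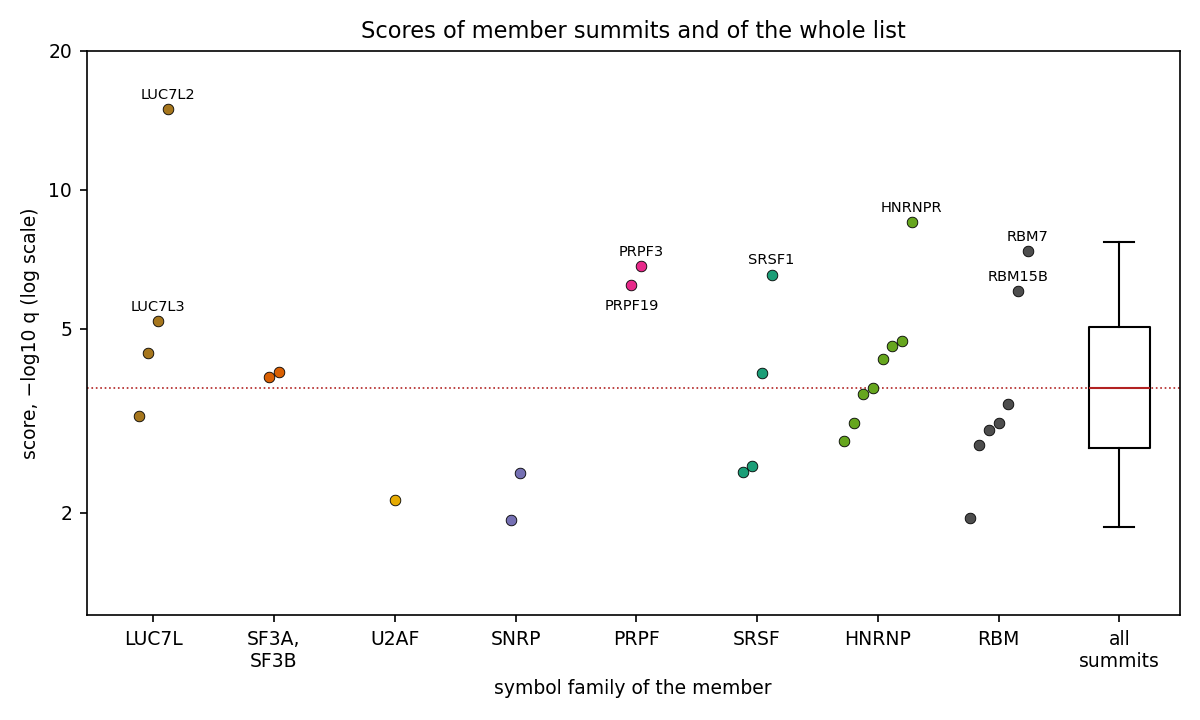
Score of each of the 30 summits at splicing genes (points, log scale) by symbol family, beside the 2697 summits of the list (box with quartiles and median, whiskers at the 5th and 95th percentiles). Names are given for the 8 summits with a score of 5 or more, and the dotted line marks the list's median of 3.72; LUC7L2 stands highest at 14.9 and both SNRP summits lie under the line.

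As a group the scores resembled those of the list. Summits at splicing genes had a median score of 3.83 with quartiles of 2.91 and 5.08, against 3.72 with quartiles of 2.76 and 5.04 for all 2697 summits. Of the 30, 16 (53.3%) reached the list's median and 8 (26.7%) reached a score of 5, against 25.8% of all summits. After LUC7L2, the highest were HNRNPR at 8.51, where 3.34% of all summits scored higher, RBM7 at 7.36 (5.86% higher) and PRPF3 at 6.84 (7.68% higher).

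The promoter table gives strand and start for 108 of the 121 genes and for 79.2% of all protein-coding genes, with none on chromosome 8. Of the 29 summits at a splicing gene with a listed start, 28 lay within 485 bp of that gene's nearest start, 13 upstream and 15 downstream; the exception was U2AF2. Within 250 bp lay 16 of them, while 7 lay 250 to 500 bp upstream and 5 lay 250 to 500 bp downstream. For a like comparison, the nearest start of any protein-coding gene was taken. Then 29 of the 30 summits at splicing genes (96.7%) lay within 1 kb of a start, against 1842 of 2619 summits in the list (70.3%, chromosome 8 left out). The first share is raised by the rule, which takes only summits in or near a gene. The exception was PRPF3, which has no listed start, while the U2AF2 summit counted through the start of EPN1. Genes without a listed start can lower both shares. Of the summits within 1 kb of a start, 18 (62.1%) at splicing genes lay within 250 bp, against 76.0% of the 1842. The median distance was 189 bp at splicing genes, against 138 bp over the list. The values at splicing genes rest on 29 summits, and a difference from the list was not tested.

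**Figure D3:**
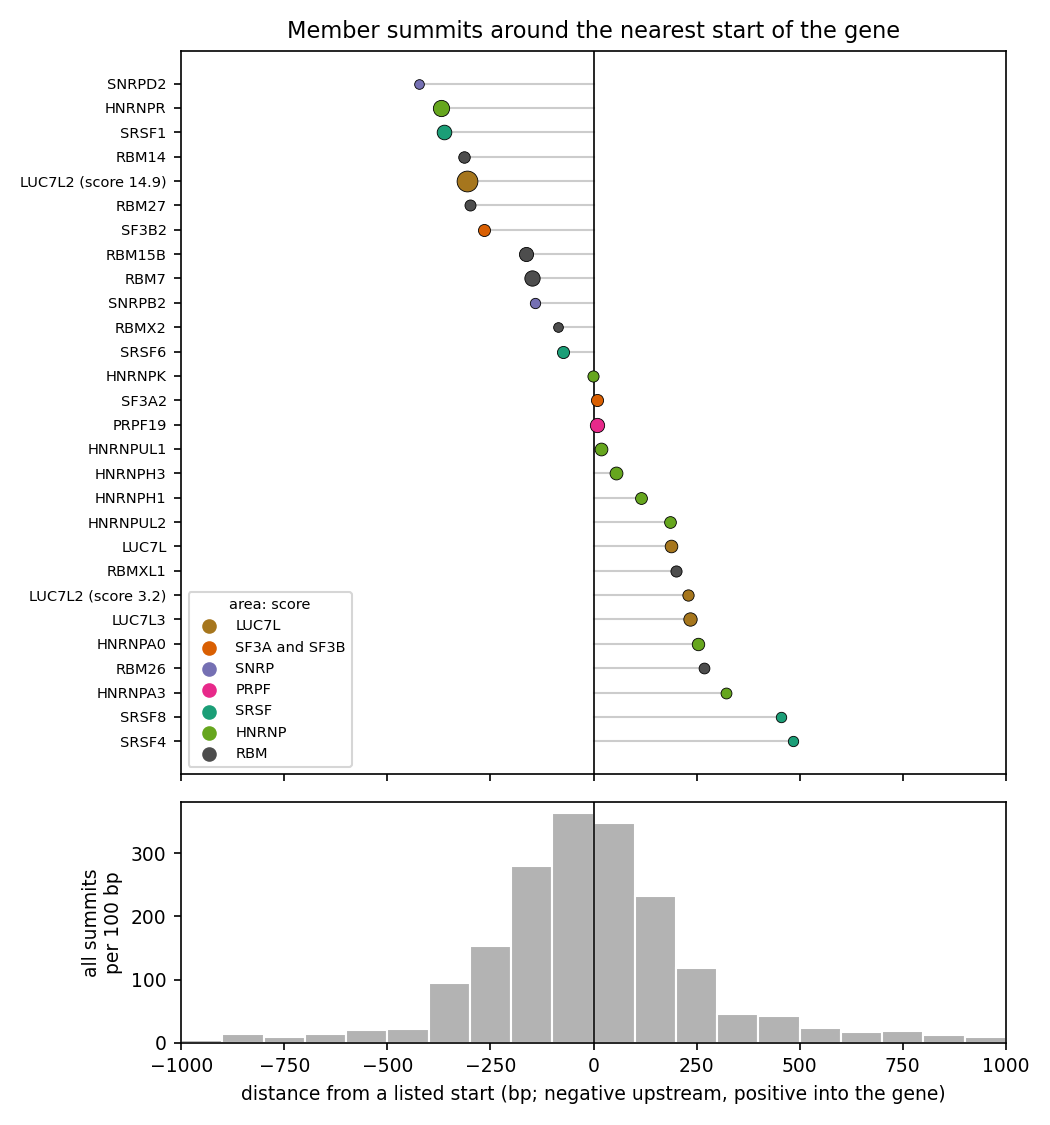
Upper panel: distance of 28 summits from the nearest listed start of their splicing gene (horizontal axis, bp, negative upstream), 1 row per summit, with colour for the symbol family and point size rising with the score. Lower panel: number of all summits of the list per 100 bp around the nearest start of a protein-coding gene; the 28 summits run from 424 bp upstream at SNRPD2 to 485 bp downstream at SRSF4, while the list is densest within 100 bp of the start.

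Some of these summits lay in or near further genes. In or within 1 kb of 2 or more protein-coding genes lay 13 of the 30 summits (43.3%), against 483 of the 2435 summits near any protein-coding gene (19.8%). This counts overlap with gene limits, not shared starts. The first share is raised by the gene rule, because a summit near several genes has more chances to lie at a splicing gene. At 3 of the 13 the only further gene was a readthrough of the same gene. Leaving out readthrough genes and other splicing genes, 10 summits had a neighbour: PBLD at HNRNPH3, RMI1 at HNRNPK, TTC9C at HNRNPUL2, FMC1 at LUC7L2, C11orf71 at RBM7, KYAT3 at RBMXL1, PLEKHJ1 at SF3A2, QPCTL at SNRPD2, MECR at SRSF4 and EPN1 at U2AF2. The nearest listed MECR start was 49519 bp from the summit. The summit was nearer to the neighbour's listed start than to that of the splicing gene at RBM7, SNRPD2 and U2AF2. A summit between such starts cannot be assigned to a single gene. The same holds at RBMXL1, where the summit lay 201 bp downstream of the nearest listed start of both RBMXL1 and KYAT3.

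A further summit lay within 10 kb of 1 of the 30 summits, at RBM15B (5608 bp), against 286 of all 2697. This count is small, and a difference from the list was not tested. The 30 summits were spread over 14 of the 23 chromosomes that hold splicing genes. Chromosome 11 had 7 of 10 splicing genes with a summit, against 20.9% of all its protein-coding genes, and 2 of the 7 share a summit. Chromosome 5 had 4 of 6, with 2 sharing a summit, against 12.2% of all its protein-coding genes. Chromosomes 6, 12 and 14 had 0 of 5 each, against 10.7%, 14.8% and 14.05% of all protein-coding genes there. The 90 splicing genes without a summit lay at a median of 273716 bp from the nearest.

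Base composition was compared in the promoter windows. These are not all separate promoters: RBM14 and RBM14-RBM4 have the same window, as do RBM27 and RBM27-POU4F3. Genes with several listed starts add several windows, some of them overlapping and some away from the summit. The 42 windows of splicing genes with a summit had a median GC content of 64.2% and the 95 windows of those without 60.7%, while all windows of protein-coding genes with a summit had 67.3% and all without 61.3%. The CpG ratio had a median of 0.944 at splicing genes with a summit and 0.876 at those without. Over protein-coding genes it was 0.847 with a summit and 0.706 without. CpG-rich windows made up 76.2% of windows at splicing genes with a summit and 71.6% at those without, against 73.5% and 50.3% for all protein-coding genes with and without a summit.

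**Figure D4:**
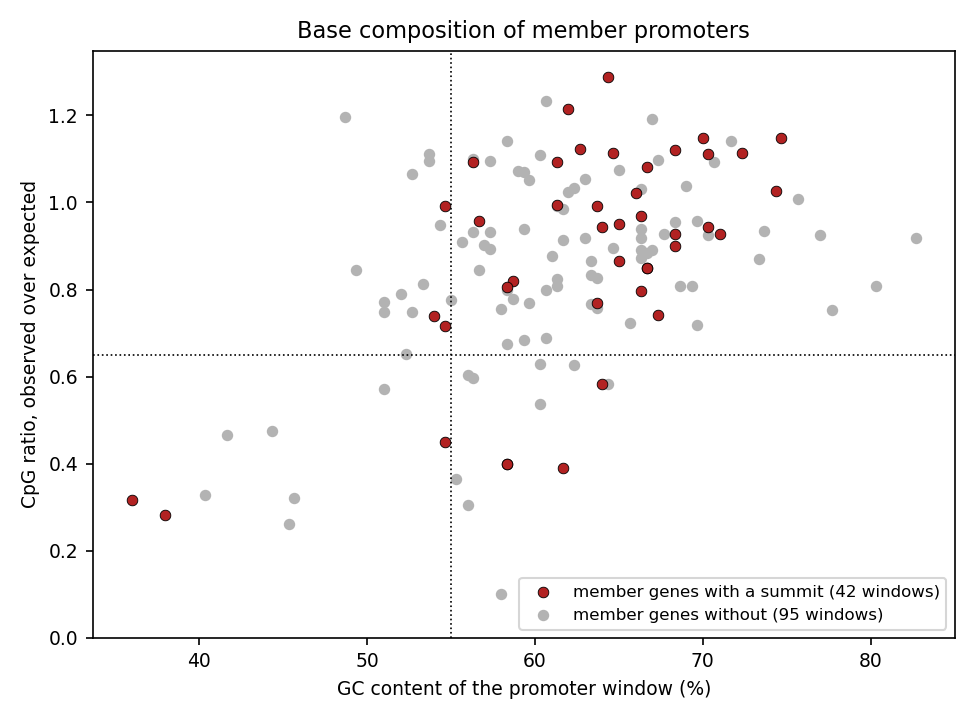
GC content (horizontal axis, percent) and observed over expected CpG ratio (vertical axis) of each promoter window of the splicing genes, for the 42 windows of genes with a summit and the 95 of genes without. Dotted lines mark 55% GC and a ratio of 0.65; the groups overlap over most of the range, with medians of 64.2% and 60.7% GC.

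The letters of 9 short motifs were counted on either strand of the windows; a match describes the sequence and is not a binding site. CCAAT was present in 45.2% of windows at splicing genes with a summit and 45.3% at those without, against 34.3% and 34.7% for all protein-coding genes with and without a summit. The GC box GGGCGG was in 50% of windows at splicing genes with a summit and 57.9% at those without, against 71.1% and 53.5% for all protein-coding genes with and without a summit. CCGGAAG was in 19.05% of windows at splicing genes with a summit and 26.3% at those without, against 17.8% and 11.9% for all protein-coding genes with and without a summit. CACGTG (E-box), TATAAA, TGACGTCA, AAGATGGCG (YY1 type) and TGCGCATGC were each in at most 4 windows of splicing genes with a summit, and TGACGTCA was in none of the 42. In that order their shares were 9.5%, 2.4%, 0%, 4.8% and 4.8%. Over all windows of protein-coding genes the shares were 8.3%, 9.5%, 2.3%, 2.4% and 1.9%. These counts are small, and a difference was not tested. None of the motifs contains another, and a window counted once however many matches it held. The repeated and overlapping windows named above were each counted.

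TCTCGCGA, a CpG-containing promoter element, was in 4 of 42 windows of splicing genes with a summit (9.52%) and in 1 of 95 of those without (1.05%), against 1.58% of all 22156 windows and 1.91% of windows of protein-coding genes with a summit. The counts are small, and this motif was singled out after its values were seen. The match lay 46 bp from the summit at HNRNPK, where it stands in the sequence printed above, 234 bp from it at HNRNPH3, 257 bp at RBM26 and 379 bp at LUC7L2. From the nearest listed start, with minus for upstream, the first base of the match lay at -157 bases for LUC7L2 (its internal start), -83 for HNRNPH3, -57 for HNRNPK and 3 for RBM26. The splicing gene with a match and no summit was SRSF10. These matches, in capitals, are shown to compare the bases around them.
HNRNPH3 (chr10:68331965-68332006, plus strand): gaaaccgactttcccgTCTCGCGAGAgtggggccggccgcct
LUC7L2 (chr7:139359721-139359760, plus strand): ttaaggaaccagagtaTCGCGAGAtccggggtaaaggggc
RBM26 (chr13:79406227-79406268, minus strand): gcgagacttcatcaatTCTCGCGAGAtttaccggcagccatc
SRSF10 (chr1:23980354-23980395, minus strand): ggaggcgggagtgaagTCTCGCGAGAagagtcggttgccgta

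Other genes of the pathway were taken from lists outside the symbol rule, which were chosen with earlier results of these data known. Of 119 such genes, 26 had a summit by the same 1 kb rule (21.8%, interval 14.8 to 30.4), against 13.8% of all protein-coding genes. Spliceosome proteins had 13 of 52 (25%, interval 14.03 to 38.95). CHERP, a U2-associated protein gene, scored highest there at 8.11, with the summit 12 bp inside an outer end of the gene. No start of CHERP was listed, so which end this is was not determined. SNRNP70, the U1 70K protein gene, had a summit 302 bp upstream (5.33). CRNKL1 (5.63), CWC15 (5.20), SMNDC1 (4.21) and SART1 (4.04) also scored above the list's median. The others were SLU7, USP39, LSM5, LSM7, DDX23, DDX42 and the helicase gene DHX15, with scores of 2.19 to 2.79.

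SR protein kinases and SR-related proteins had 7 of 17 (41.2%, interval 18.4 to 67.1). These were the kinase genes CLK4 (5.67), CLK3 (3.17) and CLK2 (2.16), the SR-like gene TRA2B (3.42), and SRRM2 (3.13), SRRM1 (2.95) and ACIN1 (1.81). Other splicing regulators had 5 of 32 (15.6%, interval 5.28 to 32.8), among them CELF1 with 2 summits (7.23 and 3.33), KHDRBS1 (6.63) and ESRP2 (5.68), an epithelial splicing regulator. The fourth and the fifth were EWSR1 (3.43) and PTBP3 (2.64). snRNP assembly had 1 of 14, the arginine methyltransferase gene PRMT5 (3.17), and the exon junction complex had 0 of 4, which leaves an upper limit of 60.2%. For all these lists the share of all protein-coding genes was 13.8%.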

How the data were processed

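SW620 cells were profiled by ChIP-seq with an antibody to WSTF. The submitters' processing notes name Trimmomatic 0.39, Bowtie2 2.4.4, MACS2 2.2.7.1 and build hg38; the design text adds that peaks were called with input as control. The deposited list gives 1 base per summit and a score, read as the −log10 q-value of the authors' peak caller because its lowest value, 1.31, lies just above 1.30, the value for a q of 0.05. The sources do not say whether libraries were pooled, and depth is unknown.

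Summits were overlapped with the RefSeq GRCh38.p14 gene table, which shares coordinates with hg38, in Python 3.11.15 with a 1 kb window. Signed distances used the starts and strands of the RefSeq promoter windows, with minus meaning upstream. Shares carry exact intervals from scipy 1.17.1. The overlap step was tested on simulated data. No test across genes or samples was made. The text names the splicing genes with a summit, their coding neighbours and the genes with a summit in the other lists. An item is not reported here. The genes and lists were chosen with earlier results of these data known.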

Additional observations from a re-analysis of the deposited data

How the results depend on the processing

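Of 36 alternative values, 25 stayed within 1.5 times the main count or within the main value's 95% interval, and 11 moved beyond these limits. Counting summits inside the gene alone gave 15 splicing genes (12.4%) and 15 summits, against 8.15% of protein-coding genes. No interval was computed for this share, and a difference from the background was not tested. Keeping summits at or above the median score gave 16 genes (13.2%) and 16 summits, against 7.35%, and a score of at least 5 gave 8 genes (6.61%) and 8 summits, against 3.71%; these settings use fewer summits. Genes with a CpG-rich promoter, an alternative chosen after seeing the data, had a background share of 20.6% in place of 13.8%. Of the 27 summits within 1 kb of a splicing gene's outer end, 14 lay within 250 bp. Windows of 500 bp and 5 kb gave 31 and 33 genes (25.6% and 27.3%), against 13.3% and 15.6% of protein-coding genes. Leaving out readthrough symbols gave 29 (24.4%) and adding SNRNP symbols 32 (25%), each against 13.8%. Summits nearest to a splicing gene alone gave 27 genes. No background share was computed for that setting, so this count cannot be set against the 13.8%. No paired analysis was possible because the only list used carries no replicate numbers. Without the depth, WSTF below the caller's threshold would not be detectable.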

Other observations

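Several summits at splicing genes also lay near non-coding genes. The LUC7L2 summit with the score of 14.9 lay 535 bp from the arginine tRNA gene TRR-CCT4-1 (chromosome 7, 139340700 to 139340772), and 22 of 499 annotated tRNA genes (4.41%) held a summit or had one at most 1 kb away, through 19 summits. The HNRNPA3 summit lay 316 bp from MIR4444-1 and the SF3A2 summit 906 bp from MIR6789. The PRPF19 summit lay 203 bp from the divergent transcript PRPF19-DT, and the RBM26 summit 323 bp from the antisense transcript RBM26-AS1.

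Markers of intestinal epithelium (CDX1, CDX2, VIL1, KRT20, EPCAM, CDH17 and LGR5) had a summit at 0 of 7 genes, which leaves an upper limit of 40.96%. The share of all protein-coding genes, 13.8%, lies under that limit. A summit list does not measure expression, so the cell line's identity was not checked by it.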
